A study of Mus musculus with 17 samples.

Results

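The genes described here are 9 airway secretory and club cell genes (Scgb1a1, Scgb3a1, Scgb3a2, Cyp2f2, Muc5b, Muc5ac, Bpifa1, Bpifb1 and Cbr2), taken by symbol from a table of read counts for 45777 mouse genes. All 9 were among the 22052 genes that passed the filter on low counts. The counts came from bulk RNA-seq of lungs of male, wild-type C57BL/6 mice, which were 6 weeks old on arrival and were irradiated about a week later. An image-guided irradiator gave a focal beam of 65 or 75 Gy to the left lung in a single fraction, and controls received none. Tissue was collected after 2 or 6 weeks. Each of the 6 groups (control, 65 Gy and 75 Gy at each time) held 3 libraries except 65 Gy at 6 weeks, which held 2. According to the methods of the study, the RNA of irradiated mice was taken from the lesions, and the share of airway in each piece is not given. In such bulk samples, fewer cells of a type and less RNA per cell cannot be told apart.

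Airway secretory cells line the bronchi and bronchioles and release the proteins that coat the airway surface. Club cells, the main secretory cells of mouse bronchioles, secrete secretoglobins, carry the enzymes that oxidize inhaled toxicants, and can act as progenitors after airway injury. Mucous cells, which are sparse in a healthy mouse lung, secrete the gel-forming mucins, and the larger airways also secrete proteins of the BPI fold family that act on microbes and on the surface film. Among the members, Scgb1a1 encodes the club cell secretory protein, Scgb3a1 and Scgb3a2 encode further secretoglobins, and Cyp2f2 encodes a cytochrome P450 that bioactivates naphthalene. Cbr2 encodes a carbonyl reductase of lung mitochondria, Muc5b and Muc5ac encode the gel-forming mucins of the airway, and Bpifa1 and Bpifb1 encode secreted BPI fold proteins.

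In GRCm38.p6, the build of the counts, Bpifa1 (NCBI gene 18843, chr2:154142880-154149217) and Bpifb1 (228801, chr2:154190818-154220343) lie 41600 bases apart on the plus strand. Muc5ac (17833, chr7:141788958-141819227) and Muc5b (74180, chr7:141839059-141873089) lie 19831 bases apart on the plus strand. The other genes are Cyp2f2 (13107, chr7:27119955-27133660, plus), Scgb3a1 (68662, chr11:49663595-49665118, plus), Cbr2 (12409, chr11:120729485-120732025, minus), Scgb1a1 (22287, chr19:9083642-9087956, minus) and Scgb3a2 (117158).

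The 250 bases before each start site are shown for 5 of the 9 genes. No window was available for Scgb1a1, Muc5b or Muc5ac, and Scgb3a2 was left out. The 5 genes were thus not chosen to represent the patterns below. Of them, Bpifa1, Bpifb1 and Scgb3a1 varied between libraries, whereas Cyp2f2 and Cbr2 were lower after irradiation. The promoters of the other members were not searched. The windows were taken from RefSeq on GRCm38.p6, run 5′ to 3′ on the strand of the gene, and end at the base before the start. For Cbr2 the start site used lies inside the gene limits given above, so its window (from 120732022) overlaps the gene (to 120732025). Capitals mark a forkhead heptamer, searched on both strands as TGTTTAC and in its variants, of which 1 is TATTTAC and the other is TGTTTGC.
Bpifa1, chr2:154142630-154142879, + strand: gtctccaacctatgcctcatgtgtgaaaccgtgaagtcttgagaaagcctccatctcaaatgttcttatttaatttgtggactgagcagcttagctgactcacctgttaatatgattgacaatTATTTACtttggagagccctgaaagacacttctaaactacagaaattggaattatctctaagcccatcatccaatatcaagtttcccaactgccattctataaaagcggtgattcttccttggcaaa
Bpifb1, upstream start, chr2:154190568-154190817, + strand: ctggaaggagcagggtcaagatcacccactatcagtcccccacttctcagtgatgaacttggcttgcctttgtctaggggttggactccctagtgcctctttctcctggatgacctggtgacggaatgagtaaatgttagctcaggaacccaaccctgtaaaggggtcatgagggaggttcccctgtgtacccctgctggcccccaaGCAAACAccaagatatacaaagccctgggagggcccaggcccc
Bpifb1, downstream start, chr2:154200130-154200379, + strand: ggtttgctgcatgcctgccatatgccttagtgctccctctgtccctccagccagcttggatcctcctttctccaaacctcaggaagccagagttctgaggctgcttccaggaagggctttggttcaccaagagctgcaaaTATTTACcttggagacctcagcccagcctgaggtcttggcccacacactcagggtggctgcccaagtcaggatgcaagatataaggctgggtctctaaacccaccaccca
Scgb3a1, chr11:49663345-49663594, + strand: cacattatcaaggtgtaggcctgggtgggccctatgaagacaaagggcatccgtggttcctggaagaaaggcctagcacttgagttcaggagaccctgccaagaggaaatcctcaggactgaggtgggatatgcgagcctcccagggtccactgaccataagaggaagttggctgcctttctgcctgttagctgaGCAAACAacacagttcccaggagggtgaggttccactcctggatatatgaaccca
Cyp2f2, chr7:27119705-27119954, + strand: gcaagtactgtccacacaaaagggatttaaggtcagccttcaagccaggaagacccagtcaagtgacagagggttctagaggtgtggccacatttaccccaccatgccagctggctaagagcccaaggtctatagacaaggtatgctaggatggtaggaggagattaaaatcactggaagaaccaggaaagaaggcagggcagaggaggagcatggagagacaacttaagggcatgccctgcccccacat
Cbr2, chr11:120732022-120732271, - strand: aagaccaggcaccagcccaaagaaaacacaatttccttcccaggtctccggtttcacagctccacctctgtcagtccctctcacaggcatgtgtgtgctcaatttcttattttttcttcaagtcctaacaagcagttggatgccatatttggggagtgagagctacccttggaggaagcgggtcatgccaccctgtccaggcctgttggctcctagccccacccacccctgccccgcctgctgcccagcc

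A forkhead heptamer was found in each of the 4 windows of Bpifa1, Bpifb1 and Scgb3a1, at 127, 43, 110 and 55 bases before the start in the order printed. Neither the Cyp2f2 nor the Cbr2 window held one. Of 32851 promoter windows of the same length in the table, 9.73% held such a heptamer. The letters TATAAA stood 29 bases before the start of Bpifa1 and in 7.59% of all windows, and the core of the NKX2-1 motif, CAAGTG, was found in the windows of Cyp2f2 and Scgb3a1 and in 11.6% of all windows. The 3 motifs share no letters at any of these matches. They were chosen after the sequences had been read, and a match describes the letters only, not a bound site.

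The libraries held 46764569 to 66797879 counts, with a median of 57608149. Levels are given as counts-per-million values scaled by TMM factors (CPM), and 1 CPM stood for 46.7 counts or more in each library. Defining markers of lung were present in every library: the alveolar type 2 gene Sftpc lay between 8368 and 18730 CPM, and the alveolar type 1 gene Ager lay between 1160 and 2126 CPM over the 17 libraries. Epcam, an epithelial adhesion protein, lay between 59.9 and 72.4 CPM in controls and between 57.9 and 74.1 CPM in irradiated libraries. Library 3134 (75 Gy, 2 weeks) stood apart, with the highest summed level of 14 leukocyte genes, 3754 CPM against 1775 to 2244 CPM in the other irradiated libraries. The ciliated cell factor Foxj1 (76.9 to 160 CPM), the leukocyte phosphatase Ptprc (203 to 429 CPM) and the smooth muscle myosin Myh11 (67.0 to 226 CPM) were present in all libraries. Values without library 3134 are given beside the results for 75 Gy at 2 weeks where they differ in call or direction, and without it the genes called in that comparison numbered 1097 in place of 1707. Nothing in the labels says that libraries came from separate animals. The p-values therefore set each difference against the spread between libraries, estimated in a single fit of all 17.

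Scgb1a1, Cyp2f2 and Cbr2 were lower in every irradiated library than in every control of the same time, at both doses. Their log2 fold changes against controls lay between -0.54 and -1.24. The 5 genes Scgb3a1, Muc5b, Muc5ac, Bpifa1 and Bpifb1 instead varied 23.0- to 94.1-fold over the 17 libraries. The highest library of a group was 2.04 to 94.1 times the lowest in controls and 1.33 to 9.38 times in irradiated groups. Scgb3a2 stood between the patterns.

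**Figure D1:**
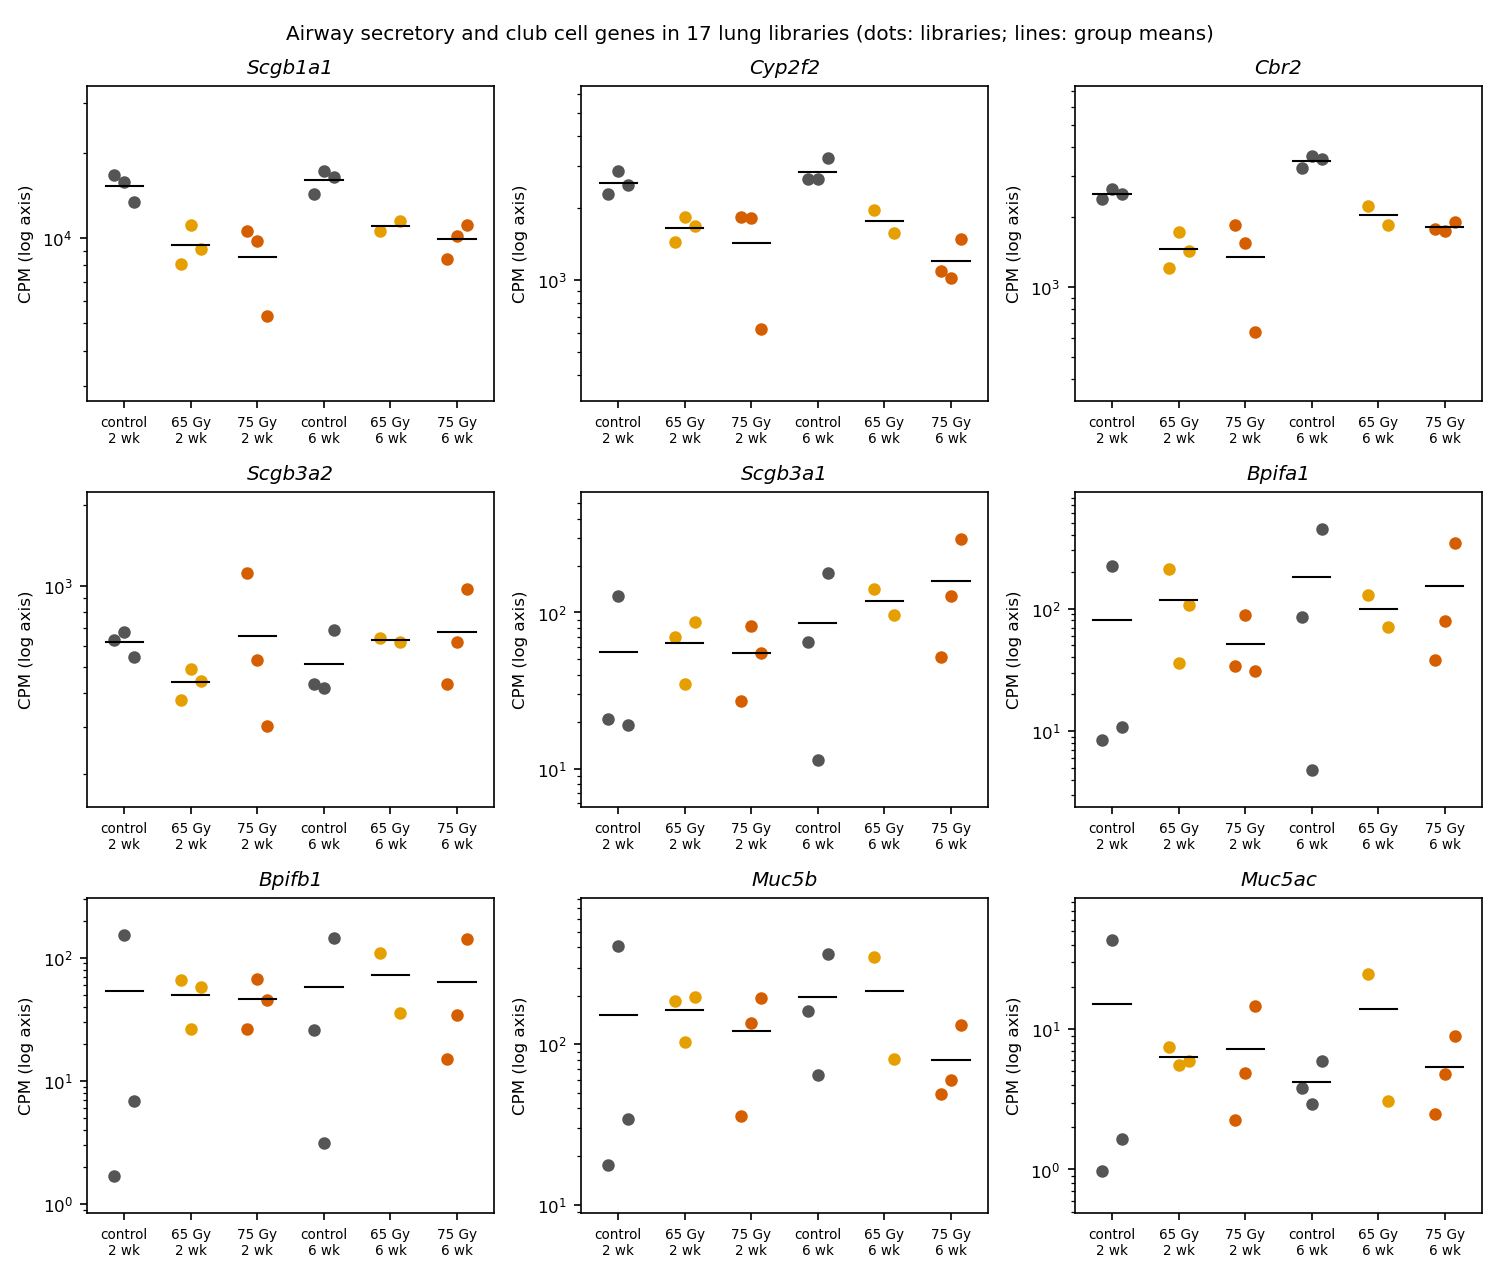
Level of each of the 9 genes in 17 libraries, in CPM on a log axis, by group (dots, libraries; lines, group means). The irradiated libraries of Scgb1a1, Cyp2f2 and Cbr2 sit below all controls, whereas the dots of Bpifa1 spread from 4.76 to 448 CPM within the controls of 6 weeks.

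Per kilobase of exon, the scale on which genes can be compared, the order of the mean control levels at 2 weeks was Scgb1a1 (32166 ± 3616 CPM per kb, SD, n = 3), Cbr2 (2268 ± 116), Cyp2f2 (1370 ± 154) and Scgb3a2 (701 ± 75.9). These 4 neighbours did not overlap within their SD. Below them stood Scgb3a1 (93.4 ± 104), Bpifa1 (72.7 ± 111), Bpifb1 (30.9 ± 49.3), Muc5b (10.2 ± 14.7) and Muc5ac (1.42 ± 2.24), whose SDs were larger than their means. The order among these 5 therefore did not exceed the spread between libraries.

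Scgb1a1 was the gene with the most counts in each of the 6 control libraries, where it took 1.31 to 1.69% of all counts. In the 11 irradiated libraries it ranked 2nd to 4th, with 0.532 to 1.15%. At 2 weeks Scgb1a1 stood at 16732, 15803 and 13397 CPM in controls, 8071, 11132 and 9156 CPM after 65 Gy, and 10615, 9745 and 5307 CPM after 75 Gy. At 6 weeks it stood at 14329, 17195 and 16481 CPM in controls, 10588 and 11480 CPM after 65 Gy, and 8426, 10144 and 11122 CPM after 75 Gy. No irradiated library reached a control of either time. The log2 fold change was -0.70 ± 0.21 (SE; adjusted p = 0.0464) for 65 Gy and -0.84 ± 0.21 (adjusted p = 0.0102) for 75 Gy at 2 weeks. It was -0.54 ± 0.24 (adjusted p = 0.146) for 65 Gy and -0.69 ± 0.21 (adjusted p = 0.0187) for 75 Gy at 6 weeks. All adjusted p-values, unless another tool is named, come from the quasi-likelihood test of edgeR, adjusted by Benjamini and Hochberg's method over the 22052 genes.

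Cyp2f2, the club cell P450, at 2 weeks stood at 2297, 2865 and 2505 CPM in controls, 1447, 1840 and 1686 CPM after 65 Gy, and 1832, 1818 and 624 CPM after 75 Gy. At 6 weeks the values were 2646, 2655 and 3241 CPM in controls, 1966 and 1574 CPM after 65 Gy, and 1096, 1020 and 1491 CPM after 75 Gy. The 75 Gy libraries of 6 weeks were thus all below the 65 Gy libraries of that time, which were all below the controls, and 15.3% of all genes lay wholly lower after 75 Gy than after 65 Gy at that time. Cyp2f2 fell after 75 Gy at 6 weeks, with a log2 fold change of -1.24 ± 0.29 (adjusted p = 0.00454), that is 0.422 of the control level. At 2 weeks it was -0.62 ± 0.29 (adjusted p = 0.191) for 65 Gy and -0.84 ± 0.29 (adjusted p = 0.0497) for 75 Gy, and for 65 Gy at 6 weeks -0.69 ± 0.33 (adjusted p = 0.181).

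Cbr2, the carbonyl reductase, at 2 weeks stood at 2389, 2646 and 2518 CPM in controls, 1207, 1727 and 1427 CPM after 65 Gy, and 1846, 1552 and 642 CPM after 75 Gy. The libraries of 6 weeks held 3255, 3678 and 3547 CPM in controls, 2239 and 1845 CPM after 65 Gy, and 1778, 1749 and 1905 CPM after 75 Gy. Every irradiated library was below every control here too. The log2 fold change was -0.79 ± 0.26 (adjusted p = 0.0633) for 65 Gy and -0.90 ± 0.26 (adjusted p = 0.0212) for 75 Gy at 2 weeks. At 6 weeks it was -0.77 ± 0.30 (adjusted p = 0.0927) for 65 Gy and -0.95 ± 0.26 (adjusted p = 0.0109) for 75 Gy.

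Genes that met both an adjusted p of 0.05 or less and a log2 fold change of 1 or more in either direction were called. For 75 Gy at 2 weeks 0 of the 9 genes were called, against 7.74% of all genes tested, and for 75 Gy at 6 weeks 1 (Cyp2f2), against 10.4%. For 65 Gy 0 were called at 2 weeks, against 4.35% of all genes, and 0 at 6 weeks, against 5.28%. The count of all genes behind the last share was 1164, and it was 604 without library 3138 and 743 without 3140; for 75 Gy at 2 weeks it was 834 with only the groups compared. DESeq2 and edgeR's exact test gave the same counts of called members. At an unadjusted p under 0.05, 3, 3, 3 and 2 members were counted for 75 Gy at 2 weeks, 65 Gy at 2 weeks, 75 Gy at 6 weeks and 65 Gy at 6 weeks, in each case among Scgb1a1, Cyp2f2 and Cbr2, against 35, 25.4, 45.6 and 29.4% of all genes. On the adjusted p alone, with no limit on the fold change, the counts were 3, 1, 3 and 0, against 22.3, 11, 36 and 14.7% of all genes. All irradiated libraries lay below all controls of their time for 3, 4, 3 and 3 members in the same order, against 14.8, 13.5, 27.7 and 28.1% of all genes. The fourth at 65 Gy and 2 weeks was Scgb3a2.

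**Figure D2:**
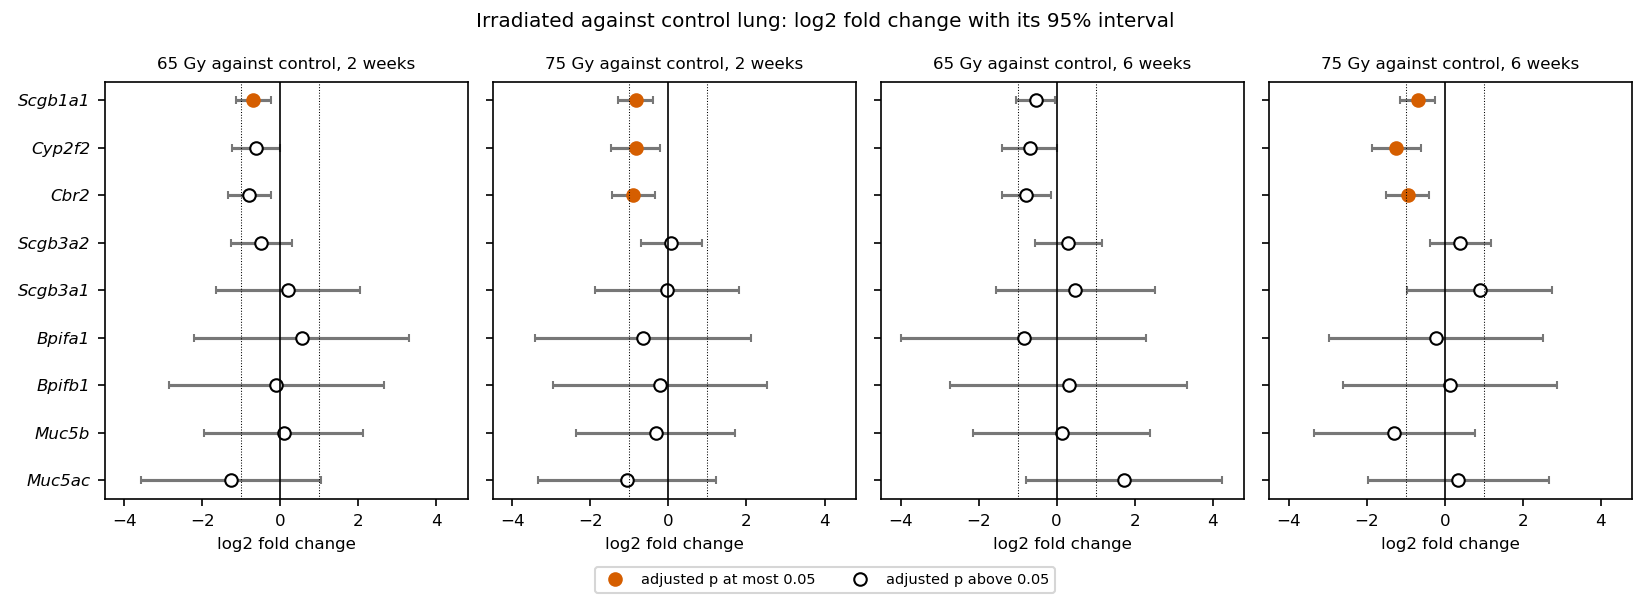
Log2 fold change of each gene against the controls of the same time, with its 95% interval; filled dots have an adjusted p of at most 0.05 and dotted lines mark a log2 fold change of 1 in either direction. The intervals of Scgb1a1, Cyp2f2 and Cbr2 are narrow and mostly below 0, and those of Bpifa1 and Bpifb1 extend beyond 2 in both directions.

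Without library 3134, whose levels of Scgb1a1, Cyp2f2 and Cbr2 were lower than in any other library, the log2 fold changes for 75 Gy at 2 weeks were -0.59, -0.49 and -0.57 for these genes. Without library 3132 instead they were -1.03, -1.07 and -1.21, and all 3 were called; without library 3133, Cyp2f2 (-1.06) and Cbr2 (-1.02) were called. The direction stayed the same. For 65 Gy at 2 weeks, the adjusted p of Scgb1a1 lay between 0.0498 and 0.172 when 1 library was left out. In a fit with only the 6 libraries of the groups compared, the adjusted p-values for 75 Gy at 2 weeks were 0.159, 0.231 and 0.177 for Scgb1a1, Cyp2f2 and Cbr2.

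The mean of the 4 irradiated groups was also set against the mean of both control groups, a comparison chosen after the values had been seen. Here the log2 fold change was -0.69 ± 0.13 (adjusted p = 0.000569) for Scgb1a1, -0.85 ± 0.18 (adjusted p = 0.00138) for Cyp2f2 and -0.85 ± 0.16 (adjusted p = 0.000539) for Cbr2. None of these reached the limit on the fold change, so that 0 members were called, against 8.48% of all genes, and DESeq2 also called 0. At an unadjusted p under 0.05, 3 members were counted, against 49.4% of all genes. The other 6 genes had adjusted p-values of at least 0.613. Without control library 3127, Muc5ac turned from -0.07 to 1.70 (adjusted p = 0.0217) and was called, and Bpifb1 stood at 1.85 (adjusted p = 0.0754).

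No member was called between 75 and 65 Gy, and no member had an unadjusted p under 0.05 at either time, nor in DESeq2 or edgeR's exact test was any called. Among all genes, 0% were called by the quasi-likelihood test in each of these comparisons, against 0.0317% at 2 weeks and 0.0635% at 6 weeks by DESeq2 and 0.0272 and 0.0499% by the exact test, and 7.12% at 2 weeks and 6.49% at 6 weeks had an unadjusted p under 0.05. At 6 weeks the difference of 75 from 65 Gy was -0.56 on the log2 scale for Cyp2f2 (95% interval -1.24 to 0.12), -0.16 for Scgb1a1 (-0.65 to 0.34) and -0.17 for Cbr2 (-0.79 to 0.44). At 2 weeks the intervals were -0.59 to 0.30 for Scgb1a1, -0.83 to 0.40 for Cyp2f2 and -0.66 to 0.44 for Cbr2. Effects of the doses that differ by less than these bounds could not be resolved. For the difference of a dose's effect between 6 and 2 weeks, edgeR and DESeq2 called 0 members and 0 had an unadjusted p under 0.05, where edgeR called 0.254% of all genes for 75 Gy and 0.0136% for 65 Gy, DESeq2 called 1.36% and 0.354%, and 16.1% and 8.65% had an unadjusted p under 0.05 in edgeR. For 75 Gy the 95% interval of this difference was -1.27 to 0.47 for Cyp2f2 and -0.82 to 0.73 for Cbr2. Between the controls of 6 and 2 weeks 0 members were called, with 0 at an unadjusted p under 0.05 and 0 in DESeq2 and the exact test, against 0.576% of all genes called, 1.02% in DESeq2 and 1.08% in the exact test, and 15.5% at an unadjusted p under 0.05. Cbr2 was higher in every control of 6 weeks than in every control of 2 weeks, by 0.47 ± 0.26 on the log2 scale (adjusted p = 0.407), and 12.4% of all genes had all controls of 6 weeks higher.

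Scgb3a2, the secretoglobin of bronchioles, at 2 weeks stood at 631, 676 and 544 CPM in controls, 377, 492 and 445 CPM after 65 Gy, and 1115, 533 and 301 CPM after 75 Gy. After 6 weeks the values were 433, 418 and 684 CPM in controls, 640 and 620 CPM after 65 Gy, and 434, 620 and 969 CPM after 75 Gy. The highest and the lowest of all 17 values thus came from the same group, 75 Gy at 2 weeks. The log2 fold changes were -0.49 ± 0.37 (adjusted p = 0.442) for 65 Gy and 0.07 ± 0.37 (adjusted p = 0.911) for 75 Gy at 2 weeks, and 0.30 ± 0.41 (adjusted p = 0.673) and 0.40 ± 0.37 (adjusted p = 0.420) at 6 weeks. For 75 Gy at 2 weeks the value was -0.57 without library 3132 and 0.42 without library 3134, so its direction rested on single libraries.

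The reads of Scgb3a2 were also set against those of Scgb1a1 in the same library, a ratio that does not depend on how libraries are scaled and that was chosen after the values had been seen. Per 1000 Scgb1a1 reads there were 37.7, 42.8 and 40.6 Scgb3a2 reads in the controls of 2 weeks, 46.7, 44.2 and 48.6 after 65 Gy, and 105, 54.7 and 56.7 after 75 Gy. At 6 weeks the ratio was 30.2, 24.3 and 41.5 in controls, 60.5 and 53.99 after 65 Gy, and 51.5, 61.1 and 87.2 after 75 Gy. The 11 irradiated libraries, at 44.2 to 105, did not overlap the 6 controls, at 24.3 to 42.8. Since Scgb1a1 itself was lower in every irradiated library, genes that did not change also gave higher ratios, and 32.8% of all other tested genes had ratios to Scgb1a1 that were higher in all irradiated libraries than in all controls; the separation of Scgb3a2 is thus a description and is not particular to it. The ratios of Cyp2f2 (137 to 197 in controls, 101 to 187 in irradiated libraries) and of Cbr2 (143 to 227 and 121 to 211) did overlap. The ratio of the alveolar type 2 gene Sftpc was 617 to 989 in controls and 927 to 2223 in irradiated libraries.

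**Figure D3:**
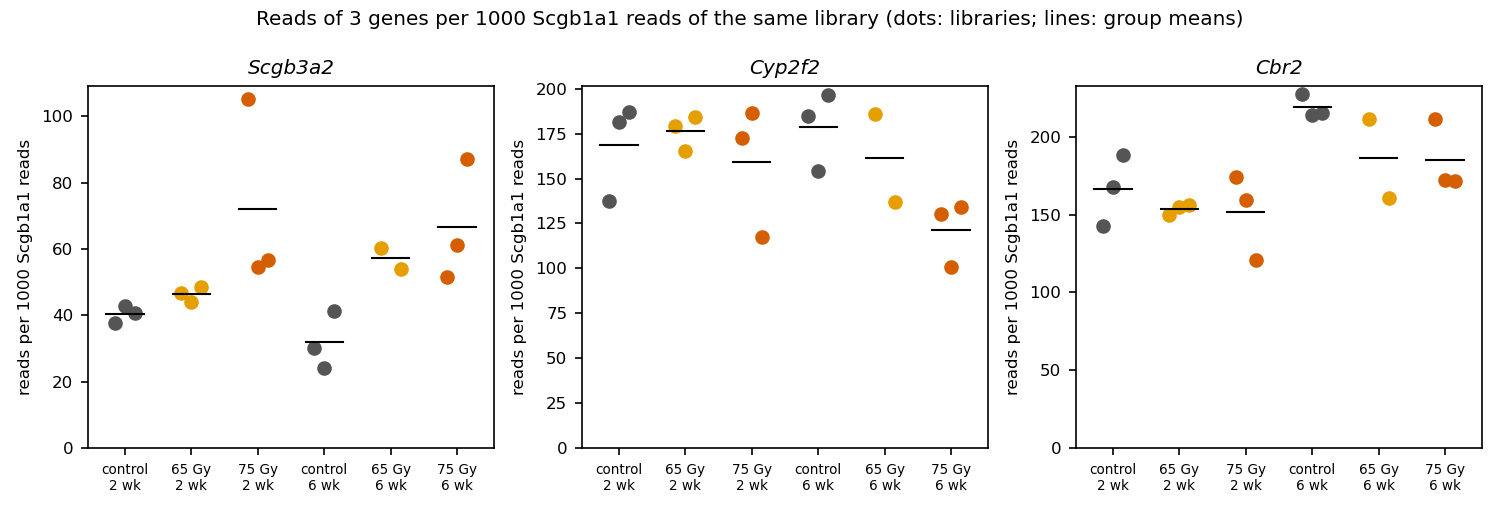
Reads of Scgb3a2, Cyp2f2 and Cbr2 per 1000 Scgb1a1 reads of the same library, by group (dots, libraries; lines, group means; axes start at 0). For Scgb3a2 all irradiated libraries lie above all controls, as for 32.8% of all tested genes, whereas for Cyp2f2 and Cbr2 the groups overlap.

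The other 5 members varied between libraries of the same group. Bpifa1, a secreted protein of the large airways, stood at 8.44, 222 and 10.7 CPM in the controls of 2 weeks, at 211, 36.1 and 107 CPM after 65 Gy and at 34.0, 88.3 and 31.0 CPM after 75 Gy. Its values at 6 weeks were 86.0, 4.76 and 448 CPM in controls, 129 and 71.2 CPM after 65 Gy, and 38.1, 79.4 and 341 CPM after 75 Gy. The lowest and the highest of the 17 values were both from controls of 6 weeks.

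Bpifb1, its neighbour on chromosome 2, stood at 1.68, 153 and 6.92 CPM in the controls of 2 weeks, 66.5, 26.2 and 57.6 CPM after 65 Gy, and 26.5, 66.7 and 45.1 CPM after 75 Gy. At 6 weeks the values were 25.9, 3.14 and 146 CPM in controls, 109 and 35.3 CPM after 65 Gy, and 15.1, 34.3 and 141 CPM after 75 Gy. The libraries that were high for Bpifa1 within the controls were high for Bpifb1.

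Scgb3a1, a secretoglobin of the larger airways, stood at 20.7, 128 and 18.9 CPM in the controls of 2 weeks, 69.5, 34.8 and 86.5 CPM after 65 Gy, and 27.1, 82.1 and 54.8 CPM after 75 Gy. At the later time it reached 64.4, 11.3 and 180 CPM in controls, 141 and 96.7 CPM after 65 Gy, and 51.8, 128 and 296 CPM after 75 Gy. Again 1 control of each time was far above the other controls.

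Muc5b, the mucin that clears the airways at baseline, stood at 17.7, 407 and 34.4 CPM in the controls of 2 weeks, 187, 103 and 198 CPM after 65 Gy, and 35.7, 135 and 194 CPM after 75 Gy. The 6-week libraries showed 160, 64.2 and 366 CPM in controls, 348 and 81.3 CPM after 65 Gy, and 48.8, 59.6 and 132 CPM after 75 Gy. The groups overlapped in each comparison of a dose with its controls.

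Muc5ac, the mucin that is induced in mucous cells, stood at 0.974, 43.0 and 1.66 CPM in the controls of 2 weeks, 7.43, 5.58 and 5.95 CPM after 65 Gy, and 2.26, 4.85 and 14.6 CPM after 75 Gy. By 6 weeks the levels were 3.79, 2.91 and 5.93 CPM in controls, 24.7 and 3.09 CPM after 65 Gy, and 2.48, 4.78 and 8.91 CPM after 75 Gy. The highest and the lowest value both came from controls of 2 weeks.

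For these 5 genes the 4 comparisons with controls gave adjusted p-values between 0.318 and 0.987, with standard errors of 0.87 to 1.48 on the log2 scale. The intervals were wide, and that of Bpifb1 for 75 Gy at 2 weeks ran from -2.97 to 2.53. The biological coefficient of variation, the relative spread between libraries of a group in the fit, was 1.002 for Bpifb1, 0.993 for Bpifa1, 0.846 for Muc5ac, 0.761 for Muc5b and 0.697 for Scgb3a1. The median over all genes was 0.166, and 0.501% of the 15970 genes with a mean level over 1 CPM had a larger value than Scgb3a1, the least variable of the 5. Scgb3a2 (0.310), Cyp2f2 (0.248), Cbr2 (0.222) and Scgb1a1 (0.180) were closer to the median of all genes. Of the genes over 1 CPM, 4.53, 9.67, 14.1 and 26.4% had a larger value than these, in that order.

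The same library was the highest in its group for all 5 genes in 4 of the 6 groups, and the same library was the lowest in 4 of the 6. The highest were library 3127 among the controls of 2 weeks, 3137 among the controls of 6 weeks, 3138 of the pair at 65 Gy and 6 weeks, and 3143 at 75 Gy and 6 weeks. Krt5, a keratin of the basal cells of larger airways, was at 0 in 7 of the 17 libraries and stood at 1.46, 2.39, 0.511 and 1.94 CPM in these 4. Clca1, a secreted protein of mucous cells, stood at 618, 3.37, 183 and 79.0 CPM in them, and Reg3g, an antimicrobial lectin, at 59.4, 36.4, 49.3 and 100 CPM. In the other controls Clca1 was at most 0.697 CPM and Reg3g at most 9.0 CPM. Some irradiated libraries outside these 4 were above some of the 4, with Clca1 at 37.6 CPM in 3142 and 29.1 CPM in 3134, Reg3g at 41.4 CPM in 3142 and 39.6 CPM in 3129, and Krt5 at 0.904 CPM in 3129.

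The sum of 10 airway basal cell genes was highest in its group in libraries 3127 (21.4 CPM), 3137 (25.7 CPM) and 3143 (26.9 CPM), but not in 3138 (12.7 CPM against 14.3 CPM in 3140), and its defining marker Trp63 lay between 0.610 and 3.82 CPM over all libraries. The sum of 18 ciliated cell genes was highest in its group in all 4 (989, 1006, 1050 and 1147 CPM). The cartilage gene Acan was at 0 in 6 libraries and at most 0.300 CPM in any. The part of large airway tissue in these pieces in the levels of the 5 genes was not tested. Without control library 3127 the log2 fold changes for 75 Gy at 2 weeks became 3.42 for Bpifb1 (adjusted p = 0.102; -0.22 with it), 2.42 for Bpifa1 (0.253; -0.65 with it), 2.45 for Muc5ac (0.0777; -1.07 with it), 2.22 for Muc5b (0.0911; -0.33 with it) and 1.46 for Scgb3a1 (0.295; -0.03 with it). The direction of these 5 genes for 75 Gy at 2 weeks thus rested on 1 control library. For 65 Gy at 2 weeks, Muc5ac (-1.26) and Bpifb1 (-0.10) turned to 2.26 and 3.53 without 3127, whereas Scgb3a1 (0.19), Muc5b (0.09) and Bpifa1 (0.55) kept their sign, at 1.68, 2.64 and 3.62. Those 3 turned when other libraries were left out, Scgb3a1 (-0.23) and Muc5b (-0.38) without 3128 and Bpifa1 (-0.17) without 3129. In none of these fits at 2 weeks was one of the 5 called. At 6 weeks for 75 Gy, Bpifa1 (-0.23) turned to 1.75 without 3137, and Bpifb1 (0.12) and Muc5ac (0.35) to -1.22 and -0.20 without 3143. Scgb3a1 (0.89) and Muc5b (-1.29) kept their sign without any 1 library. For 65 Gy at 6 weeks, Bpifa1 (-0.85) turned to 1.14 without 3137 and Scgb3a1 (0.48) to -0.04 without 3136. Muc5ac (1.72), Muc5b (0.13) and Bpifb1 (0.31) turned to -0.44, -1.27 and -0.71 without 3138.

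**Figure D4:**
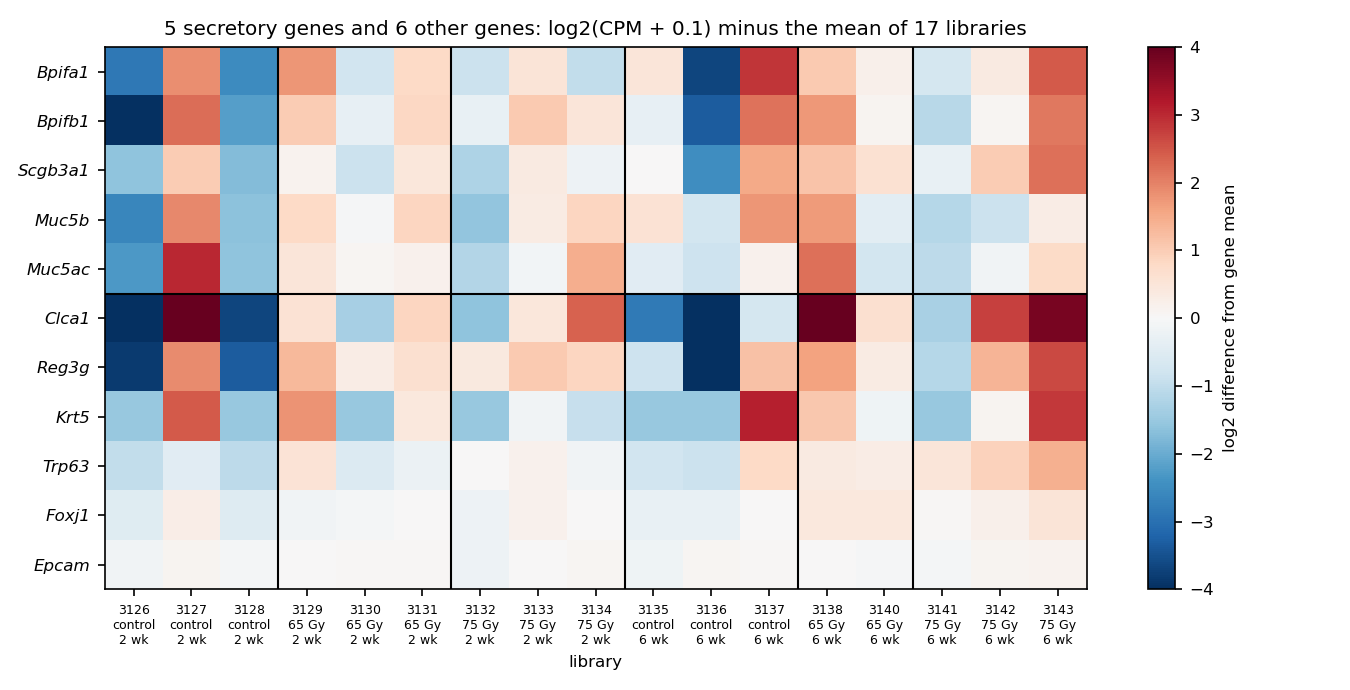
Log2(CPM + 0.1) of 5 secretory genes (above the line) and of 6 other genes in 17 libraries, each minus the mean of its gene over the libraries; red is above and blue below that mean. Libraries 3127, 3137, 3138 and 3143 are red for most secretory genes, while Epcam is near its mean in all libraries.

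For each member the 3 genes outside the list with the most similar profile were found by the root mean square difference of the centred log2 CPM over the 17 libraries. For Cbr2 these were Fmo2 (0.155), Aox3 (0.162) and Mettl7a1 (0.179), of which Fmo2 and Aox3 encode oxidases of small molecules. For Scgb1a1 they were Platr21 (0.137), Plscr4 (0.140) and Tspan2 (0.143), and for Cyp2f2 they were Stxbp6 (0.210), Bmpr2 (0.233) and Fam107a (0.234). For Scgb3a2 they were Tnnt1 (0.250), LOC115489928 (0.278) and Gchfr (0.283). Distances were larger for the variable genes, but the measure was not divided by a member's own spread, so this does not show less similarity. The SD of the centred profile was 1.22 to 1.81 for the variable genes and 0.432 to 0.596 for the other members. For Muc5ac the nearest were Fcgbp (0.583), Ano7 and Atp10b, and for Muc5b they were Ern2 (0.633), Otx1 and Cldn22. Serpina9 (0.508), Tacr1 and Gm39387 stood nearest to Scgb3a1. Reg3g (0.662), Pax9 and Cyp4a12a stood nearest to Bpifb1, and Cyp4a12b (0.630), Dmrt3 and Cyp4a12a to Bpifa1. Cyp4a12a and Cyp4a12b are near-identical copies, whose reads may have been split between them. These distances describe the libraries and share their depth and tissue.

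Other genes were taken from lists named for a cell type or role. Which cells of these bulk samples gave the reads of the listed genes was not tested. Of 30 other club cell enzymes and secreted proteins, 3, 1, 2 and 1 were called lower and 0 higher for 75 Gy at 2 weeks, 65 Gy at 2 weeks, 75 Gy at 6 weeks and 65 Gy at 6 weeks, when 2.07, 0.88, 3.13 and 0.943% of all genes were called lower. Their median log2 fold changes were -0.38, -0.38, -0.33 and -0.18, against medians between -0.01 and 0.04 over all genes. Their summed level was 6324 to 7265 CPM in controls and 3121 to 5942 CPM in irradiated libraries. Cyp4b1, a P450 of club cells, had means of 601 CPM in the controls of 6 weeks and 242 CPM after 75 Gy, and its log2 fold change was -1.31 ± 0.22 (adjusted p = 0.000429). It was called lower in all comparisons with controls except 65 Gy at 2 weeks, where it was -0.86 (adjusted p = 0.0199). Fmo2, a flavin monooxygenase of lung, was called lower for 75 Gy at 2 weeks (-1.15, adjusted p = 0.00600), and so was the potassium channel gene Kcnk5 (-1.33, adjusted p = 3.16e-05). Without library 3134, 1 gene of the list was called lower for 75 Gy at 2 weeks, Kcnk5 (-1.22), against 1.14% of all genes, while Cyp4b1 (-0.97) and Fmo2 (-0.81) kept an adjusted p under the limit. Pon1, a paraoxonase gene named after its values were seen, was called lower for 65 Gy at 2 weeks (-1.49, adjusted p = 0.0308).

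Of 9 tested genes among 16 other secretoglobins, mucins and BPI fold genes, 0, 1, 1 and 2 were called higher and 1, 1, 1 and 1 lower in the same order (all genes: 5.67, 3.47, 7.28 and 4.34% higher, and 2.07, 0.88, 3.13 and 0.943% lower), with medians of -0.34, -0.03, -0.50 and -0.34. Bpifb5, a further BPI fold gene, was called lower after 75 Gy at both times (-1.18 and -1.03, adjusted p = 0.0119 and 0.0167), from 5.92 to 2.60 CPM at 2 weeks, where it was not called without library 3134 (-1.01, adjusted p = 0.0560). Bpifa2 was called higher at 6 weeks (1.67 for 75 Gy and 1.45 for 65 Gy, adjusted p = 0.00694 and 0.0459), at means of no more than 1.63 CPM. The membrane mucin gene Muc16 was called lower for 65 Gy at 6 weeks (-2.12, adjusted p = 0.0226), when its groups overlapped. Also called, and named after their values were seen, were the secretoglobin gene Scgb1c1, lower for 65 Gy at 2 weeks (-1.45, adjusted p = 0.0367), and the membrane mucin gene Muc4, higher after 65 Gy at both times (1.03 and 1.16, adjusted p = 0.0313 and 0.0228). Muc4 stood at 32.3 to 94.0 CPM in controls and at 77.6 to 169 CPM in irradiated libraries.

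Of 18 mucous cell genes, 2, 2, 3 and 1 were called higher and 0 lower, against 5.67, 3.47, 7.28 and 4.34% of all genes called higher, with medians of -0.18, -0.15, 1.05 and 1.84. The anion exchanger gene Slc26a4 was called higher in each comparison, with log2 fold changes of 2.60, 2.49, 3.02 and 3.08 (adjusted p at most 2.78e-05). It stood at 2.60 to 7.71 CPM in controls and at 20.9 to 62.0 CPM in irradiated libraries. Galnt6, a glycosyltransferase of mucins, was called for 65 Gy at 2 weeks (1.02, adjusted p = 0.00161), and Clca2 for 75 Gy at 2 weeks (1.01, adjusted p = 0.0165; 0.86 and 0.0718 without library 3134) at means under 1 CPM. The other calls, for 75 Gy at 6 weeks, were Agr2, a disulfide isomerase needed for mucin folding (2.71, adjusted p = 0.0454), and Tff1, a trefoil peptide at 0 in all 6 controls and at no more than 0.317 CPM elsewhere; both were named after their values were seen. The sum of the list was 830 CPM in control library 3127 and 58.4 to 81.0 CPM in the other controls, against 89.0 to 331 CPM in irradiated libraries. The 2 libraries of 65 Gy at 6 weeks differed, at 331 CPM in 3138 and 98.2 CPM in 3140. Between controls, the median log2 fold change of the list was -0.88 for 6 against 2 weeks, with 14 genes lower and 3 higher.

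Of 14 tested airway secretory defence genes, 2, 2, 5 and 4 were called higher and 0 lower, against 5.67, 3.47, 7.28 and 4.34% of all genes called higher, with medians of 0.40, 0.17, 0.55 and 0.62. Lcn2, the iron-binding lipocalin, stood at 79.2 to 176 CPM in controls and at 602 to 992 CPM in irradiated libraries, and its log2 fold changes were 2.81, 2.79, 3.12 and 2.90 (adjusted p at most 1.25e-06). The chemokine gene Cxcl17 was called in all 4 comparisons (1.09, 1.05, 1.37 and 1.41), and the protease inhibitor gene Slpi for 75 Gy at 6 weeks (1.01, adjusted p = 0.000342). Duox1, a dual oxidase of the airway surface, and its maturation factor Duoxa1 were called higher at 6 weeks for both doses (adjusted p = 0.00183 and 0.00468 for 75 Gy, 0.00689 and 0.0117 for 65 Gy), and they are named after their values were seen. Duox1 was at 0 in all 6 controls and at 6 weeks stood at 0.775 and 0.478 CPM after 65 Gy and at 0.344, 0.743 and 0.895 CPM after 75 Gy. Duoxa1 stood at 0.445 and 0.205 CPM after 65 Gy, at 0.246, 0.265 and 0.310 CPM after 75 Gy and at 0 in the controls of 6 weeks; no fold is given for either. Bronchial, alveolar and inflammatory cells may each express Lcn2, and these counts do not separate them.

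Of 19 airway epithelial transcription factors and Notch genes, 0 were called except Notch1 for 75 Gy at 6 weeks (-1.25 ± 0.15, adjusted p = 4.88e-05), with medians of -0.22, -0.09, -0.28 and -0.13. Notch1 encodes a receptor that is also abundant in endothelium. Of 18 ciliated cell genes, 1 (Sntn, 1.0, adjusted p = 0.00564, for 75 Gy at 6 weeks) was called in 1 comparison, with medians of 0.02, 0.16, 0.16 and 0.24. Of all genes, 7.74, 4.35, 10.4 and 5.28% were called in the same order.

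Markers of other cells moved with these results, and their part in the lower levels of Scgb1a1, Cyp2f2 and Cbr2 was not tested. Of 14 leukocyte genes, 8, 5, 5 and 5 were called higher and 0 lower, against the same 5.67, 3.47, 7.28 and 4.34% of all genes. Without library 3134 the 8 at 75 Gy and 2 weeks became 5, against 3.85% of all genes. Their sum was 1079 to 1538 CPM in controls and 1775 to 3754 CPM in irradiated libraries. The macrophage gene Cd68 had log2 fold changes of 2.48, 2.14, 2.22 and 2.14, and Tyrobp and Laptm5, of myeloid and other leukocytes, 1.31 and 1.41 for 75 Gy at 2 weeks (2.07, 1.10 and 1.07 for Cd68, Tyrobp and Laptm5 without library 3134, all called). The sum of 13 alveolar type 1 genes was 9302 to 11562 CPM in controls and 5915 to 9016 CPM in irradiated libraries. Of these genes, Vegfa (-1.19) and Rtkn2 (-1.16) were called lower for 75 Gy at 6 weeks, against 3.13% of all genes. Of 14 alveolar type 2 genes, 2, 2, 4 and 3 were called higher and 0 lower, against the same shares of all genes, among them Fabp5 (1.74, 1.30, 1.39 and 1.28) and Chil1 (1.11, 1.09, 1.31 and 1.41) in each comparison and S100g (1.23) for 75 Gy at 6 weeks. Sftpd, named after its values were seen, was called for both doses at 6 weeks (1.13 for 75 Gy and 1.03 for 65 Gy). The medians of the alveolar type 2 list were -0.12, -0.02, 0.52 and 0.36. Its sum overlapped between controls (23925 to 35436 CPM) and irradiated libraries (22247 to 38868 CPM). The sum of 10 smooth muscle genes was 1034 to 1393 CPM in controls and 617 to 1077 CPM in irradiated libraries. Of these genes, Cnn1 (-1.13) was called lower for 75 Gy at 2 weeks, against 2.07% of all genes. Without library 3134 it was -1.03 (adjusted p = 0.0845) and no longer called.

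The sum of 16 pan-epithelial genes was 1760 to 1883 CPM in controls and 1785 to 2009 CPM in irradiated libraries, with medians of -0.04, 0.03, -0.12 and -0.00476, and the claudin gene Cldn4 was the 1 gene of the list called, higher in all comparisons but 65 Gy at 6 weeks (2.36, 1.58 and 1.95; the first was 1.45 without library 3134). Whether the share of airway epithelium in the pieces had a part in the lower levels of Scgb1a1, Cyp2f2 and Cbr2 was not tested. Of 10 basal cell genes, 1 (Krt17, 2.88, at means under 1 CPM) was called, for 75 Gy at 6 weeks, and of 10 tested neuroendocrine and tuft cell genes Dclk1 (1.15), Chga (1.54) and Trpm5 (-2.40) were called for 75 Gy at 6 weeks and Dclk1 (1.10) and Chga (1.82) for 65 Gy at 6 weeks. Of 11 tested cartilage genes, 1, 1, 3 and 1 were called higher and 0 lower (Hapln1 for both doses at 2 weeks, Col11a1 for both doses at 6 weeks, and Comp and Acan for 75 Gy at 6 weeks, Acan being at 0 in the controls of that time), at a summed level of 6.10 to 12.9 CPM in all libraries. Of all genes tested, 5.67% were called higher for 75 Gy and 3.47% for 65 Gy at 2 weeks. At 6 weeks these shares were 7.28 and 4.34%, and 3.13% were called lower for 75 Gy.

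**Figure D5:**
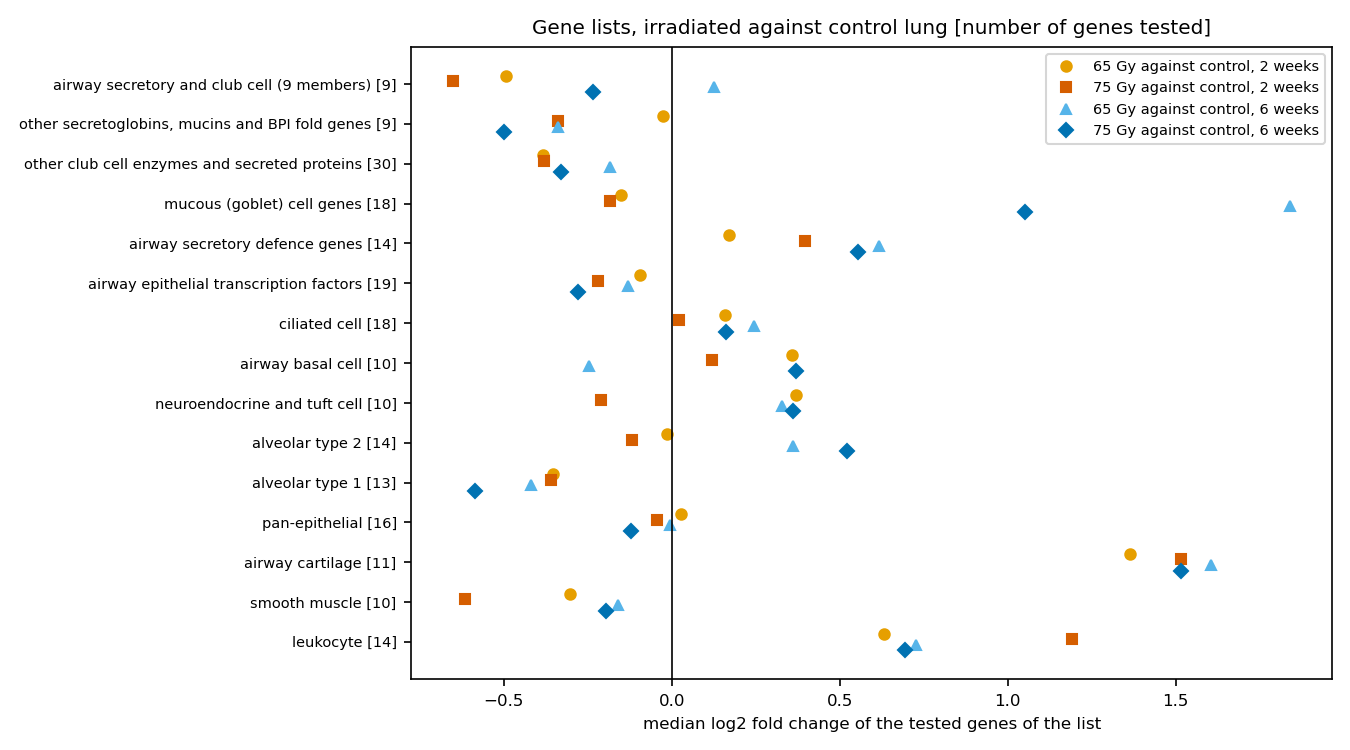
Median log2 fold change of the tested genes of each list in the 4 comparisons with controls, with the number of genes tested in brackets. The other club cell enzymes lie between -0.38 and -0.18 and the pan-epithelial genes near 0. The mucous cell genes lie at 1.05 for 75 Gy and 1.84 for 65 Gy (2 libraries) at 6 weeks. Between controls, the median of the mucous cell genes was -0.88 for 6 against 2 weeks.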

How the data were processed

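RNA of 17 mouse lung libraries was sequenced in pairs after stranded mRNA preparation. The authors used Trimmomatic to trim reads, HISAT2 to align them against GRCm38.p6 and StringTie to estimate expression, and deposited whole-number read counts per gene without normalization; how StringTie's output became counts is not given in the sources used here. A single model with 1 coefficient per group was fitted to all libraries with edgeR 4.0.16 (R 4.3.3), after filterByExpr (minimum count 10, minimum total 15) and TMM scaling, and compared by the quasi-likelihood F test with Benjamini-Hochberg adjustment over 22052 genes. Called genes had an adjusted p of 0.05 or less and a log2 fold change of 1 or more in either direction. With 46764569 counts or more per library, 1 CPM is 46.7 counts or more.

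The members and lists were chosen with earlier results of these data known. Named are all members, up to 3 called genes of each list with the smallest p, the 3 nearest profiles per member (prior count 2), and defining markers; Clca1, Reg3g, the ratios to Scgb1a1 and the other list genes marked so in the text were added after their values were seen. Exon lengths are those of GENCODE M21 on GRCm38. Alternatives were RLE, upper-quartile and no factors, 2 other filters, only the groups compared, the adjusted p alone, edgeR's exact test, DESeq2 1.42.0, another prior count (0.5) and each library left out. The methods were tested on simulated data. Each library of the control groups serves both doses, so comparisons share controls.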

Additional observations from a re-analysis of the deposited data

How the results depend on the processing

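The alternatives gave 1494 fold changes of single members beside those reported; 121 had the other sign, all but 1 of them without a call under either setting. A call was gained by 15, that 1 included, and lost by 0. The exception was Muc5ac in all irradiated against all control libraries, a comparison added after the data were seen, at 1.70 (adjusted p = 0.0217) without control library 3127 against -0.07 with it, and between -0.60 and 1.70 over the libraries left out. On the adjusted p alone, 3, 1 and 3 members passed for 75 Gy at 2 weeks, 65 Gy at 2 weeks and 75 Gy at 6 weeks, and 3 with all irradiated groups joined. With 1 library left out at a time, 0 to 3 members were called for 75 Gy at 2 weeks (3 without library 3132, 2 without 3133) and 0 to 1 with the groups joined (1 without 3127, Muc5ac). The counts of called members were the same under the other scalings, filters and tests, and Cyp2f2 was called for 75 Gy at 6 weeks under each of them (adjusted p 9.32e-05 to 0.00631) and without any 1 library (0.00873 to 0.0260). Adjusted p-values for 75 Gy at 2 weeks ranged from 0.00065 to 0.159 for Scgb1a1, 0.0169 to 0.231 for Cyp2f2 and 0.00365 to 0.177 for Cbr2, highest with only the groups compared. Of the 27 nearest profiles, 24 were kept with a prior count of 0.5. Where 1 library of the pair at 65 Gy and 6 weeks was left out, the remaining one is assumed to vary like the other groups. No paired analysis was possible because no library number occurs in more than 1 group. With 2 or 3 libraries per group, precision for the members is limited by the spread between libraries rather than by depth. For list genes under 1 CPM, such as Duox1, Duoxa1 and Tff1, low counts limit it too. Among all genes, calls by DESeq2 against edgeR numbered 301 against 56 and 78 against 3 for the change of the 75 and 65 Gy effects with time, and 225 against 127 between controls.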
